A study of Arabidopsis thaliana with 18 samples.

Results

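The comparison of SnRK1α1-OE with Col-0 rosettes at EN covered 6 of the 18 RNA-seq libraries of an Arabidopsis series, and 19408 of the 32833 genes of the deposited table. A gene was included where its deposited value was at least 10 in 3 or more of these 6 libraries. SnRK1α1-OE carries the construct 35S::SnRK1alpha1 in the Col-0 background, and the reference is wildtype Col-0. Both genotypes were sown directly on soil and grown in a 12:12 photoperiod, and whole rosettes of 20-d-old plants were harvested without treatment at ZT 24 h, the end of the dark period. There were 3 libraries per genotype, each made from a pool of rosettes. The 35S promoter drives expression in nearly all cells, so the line does not confine the extra kinase to a tissue, and it is a single line. Differences of SnRK1α1-OE from Col-0 can therefore not be told apart from other differences between this line and Col-0. The same genotypes at ED (ZT 12 h) and the sesquiα2 mutant at EN are given only beside the genes of this comparison.

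SnRK1 is the plant relative of yeast Snf1 and mammalian AMPK. It is a heterotrimer of a catalytic α subunit with a regulatory β and a βγ subunit, is activated by phosphorylation of a loop in the kinase domain, and is restrained by sugar phosphates such as trehalose 6-phosphate (Tre6P). When carbon runs short it turns on catabolic genes and turns off growth, in part through bZIP transcription factors. In a normal day, leaf starch made in the light is broken down through the night, and EN is the point at which the carbon reserve is lowest. The comparison asks which transcripts a surplus of the main catalytic subunit shifts at that point in plants that were not stressed.

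The deposited values are normalized counts that sum to about the same total in each library, so that 1 unit is close to 1 read. The 6 libraries held 36509201 to 40416618 reads. Of the 5 leaf markers, RBCS1A, the small subunit of Rubisco, had the highest value (837380 ± 39234 in SnRK1α1-OE and 793680 ± 93986 in Col-0, SD, n = 3 each). All 5 root markers not tested (IRT1, CASP1, COBL9, RHD6 and EXPA7) lay under 14 in every library. The other root markers, FRO2 and NRT2.1, had values of 67.6 to 156.5, and 5 of 8 markers of the shoot apex and of flowering (WUS, CLV3, LFY, AP1 and FT) were below the filter. No marker of leaf, root or apex had an unadjusted p under 0.05 with limma. Fewer cells of a type and less RNA per cell cannot be told apart in such bulk samples. The replicate 1 libraries of both genotypes stood apart from the other 4. On the first principal component, with 49.7% of the variance, they lay at −29.2 (SnRK1α1-OE) and −49.2 (Col-0), and the other libraries at 10.6 to 32.3. Transcripts under 600 bases deviated in them by a median of 0.26 (SnRK1α1-OE) and 0.34 (Col-0) on the log2 scale from the mean of their genotype, and by −0.20 to −0.07 in the others. Counts are therefore also given with both of these libraries left out, an alternative chosen after seeing the data.

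Few transcripts differed. With limma on log2(value + 1) and Benjamini-Hochberg adjustment over all genes, 13 of 19408 genes (0.067%) were DEGs, which means an adjusted p under 0.05 with a fold change of 1 or more in size on the log2 scale. Of these, 8 (0.0412%) were higher and 5 (0.0258%) lower in SnRK1α1-OE. No further gene passed the adjusted p alone in this fit, while 197 genes in all did with the replicate number as a term. Over all genes the log2 fold change had a median of 0.03 and an interquartile range of −0.08 to 0.14, and it was 1 or more in size for 144 genes. An unadjusted p under 0.05 from limma was found for 764 genes (3.94%), 565 of them higher (2.91%) and 199 lower (1.03%). In 1997 genes (10.3%) all 3 libraries of one genotype lay above all 3 of the other, with SnRK1α1-OE higher in 1361 (7.01%) and lower in 636 (3.28%). These counts carry the scaling of the deposited values. The median log2 fold change of the genes tested was 0.006 with median-ratio scaling, −0.0017 with quantile normalization and −0.00065 with edgeR. Whether the surplus of higher genes stays under those scalings was not tested. A single gene cannot reach an exact permutation p below 0.1 with 3 libraries against 3.

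**Figure D1:**
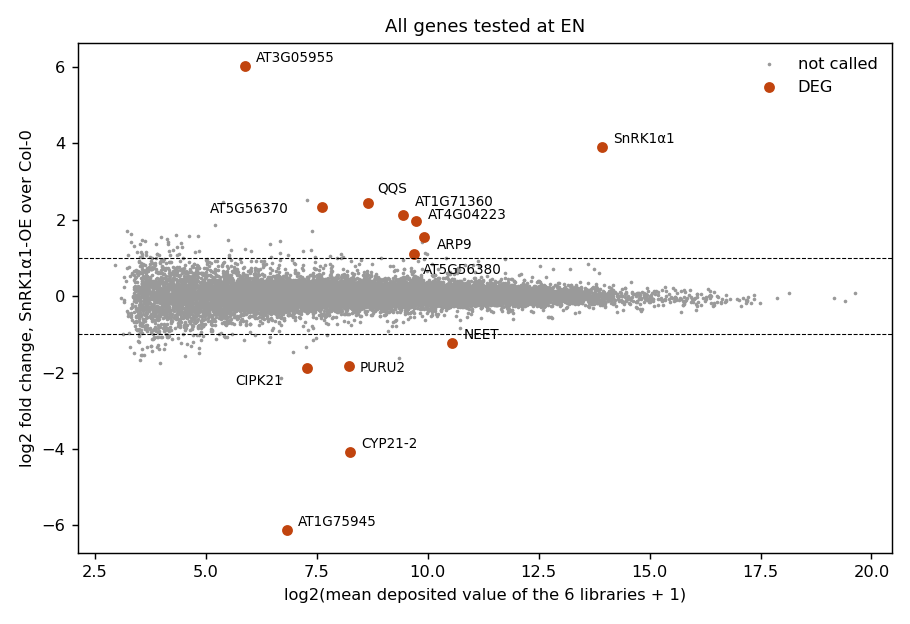
Log2 fold change of SnRK1α1-OE over Col-0 at EN (y axis) against the log2 of the mean deposited value plus 1 over the 6 libraries (x axis), for all 19408 genes tested. Orange points are the 13 DEGs, grey points the other genes, and dashed lines mark 1 and −1. SnRK1α1 is the DEG with the highest mean value, at a log2 fold change of 3.91.

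The number of DEGs moved with single libraries. It was 9, 5 and 6 without SnRK1α1-OE replicate 1, 2 and 3, and 13, 6 and 5 without Col-0 replicate 1, 2 and 3. With both replicate 1 libraries left out it was 22, of which 14 were higher and 8 lower, and these included all of the 13. The 9 further genes were PDF1.3, PDF1.2c, AT5G38005, CYP71A13, ELIP2, DFRA, AGL87, AT1G74290 and AT4G13577. With edgeR on the recovered reads it was 15 of 19456 (0.0771%), again with all of the 13 among them. Under all 17 alternatives tried, 4 genes stayed DEGs, namely SnRK1α1, AT1G71360, AT4G04223 and ARP9. The other 9 kept their direction throughout.

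The overexpressed gene itself had by far the smallest adjusted p. SnRK1α1 (AT3G01090, also KIN10, chr3:31145-34670 of TAIR10.1, minus strand) had values of 29575, 29352 and 28713 in SnRK1α1-OE and of 1961, 1883 and 1991 in Col-0. The SnRK1α1-OE libraries thus match their label. The Col-0 libraries lack the high level of that line, but this value does not set them apart from sesquiα2. The ratio of the means was 15.02, and the log2 fold change was 3.91 (SE 0.0865, adjusted p = 1.94e-06, limma). A value per gene does not separate the transgene's transcript from that of the native gene. Per kilobase of the native gene's listed length of 2427 bases, the level was 12040 in SnRK1α1-OE and 801.3 in Col-0. The length of the transgene's transcript is not given in the sources used here, so the level per kilobase in SnRK1α1-OE is uncertain. The annotated neighbour HYP1 (AT3G01100), which overlaps SnRK1α1 by 13 bases on the same strand, had 753.7, 708.1 and 860.5 in SnRK1α1-OE and 473.2, 710.3 and 791.7 in Col-0, with overlap (log2 fold change 0.26, SE 0.195, unadjusted p = 0.217, limma).

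Of the 9 tested genes on the list for the complex and its upstream kinases, SnRK1α1 was the only DEG. It was also the only gene without overlap between the groups and the only one with an unadjusted p under 0.05. The median log2 fold change of the list was −0.03. SnRK1α2 (AT3G29160), the other expressed catalytic subunit, had values of 1364, 1520 and 1580 in SnRK1α1-OE and of 1202, 1484 and 1367 in Col-0. Its groups overlapped (log2 fold change 0.14, SE 0.113, unadjusted p = 0.247, limma). Per kilobase its level was 704.6 in SnRK1α1-OE and 639.8 in Col-0, against the 12040 and 801.3 of SnRK1α1 given above. The 2 coding sequences are 77.4% identical, with a longest shared run of 29 bases. SnRK1α3 had a value of 0 in all 6 libraries. Among the β subunits, which anchor the complex and choose its targets, the log2 fold change was −0.15 for SnRK1β1, −0.04 for SnRK1β2 and −0.09 for SnRK1β3. The βγ subunit SnRK1βγ had 0.20. The listed gene SnRK1γ (AT3G48530), which the study does not name as a subunit, had −0.03. The activating kinases SnAK1 and SnAK2 had 0.03 and −0.09. The unadjusted p of these 7 genes was 0.162 or more (limma).

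Among the other 7 higher DEGs, QQS (AT3G30720, chr3:12349047-12349933, plus strand) is an orphan gene of Arabidopsis whose small protein influences starch content. Its values were 590.3, 645.9 and 799.4 in SnRK1α1-OE and 110.1, 158.3 and 108.7 in Col-0. Every SnRK1α1-OE library lay at more than 3 times every Col-0 library (log2 fold change 2.43, SE 0.196, adjusted p = 0.00868, limma). The call was lost without SnRK1α1-OE replicate 2, without Col-0 replicate 3 and in the fit of all 18 libraries (highest adjusted p = 0.226, limma).

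AT1G71360 (chr1:26891956-26894856, minus strand) is annotated by RefSeq as a galactose-binding protein. It had values of 1035, 1147 and 1182 in SnRK1α1-OE and of 231.8, 260.7 and 282.4 in Col-0. The ratio of the means was 4.34 and the log2 fold change 2.12 (SE 0.121, adjusted p = 0.00147, limma). ARP9 (AT5G43500, chr5:17469490-17473619, plus strand) encodes an actin-related protein. Its values were 1304, 1479 and 1533 in SnRK1α1-OE and 477.2, 497.5 and 490.9 in Col-0, and the groups were far apart relative to their spread (log2 fold change 1.55, SE 0.101, adjusted p = 0.00264, limma).

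A pair of adjacent F-box genes rose together. AT5G56370 (chr5:22835931-22837972) and AT5G56380 (chr5:22838633-22841117) lie 660 bases apart on the minus strand, and both encode F-box/RNI-like/FBD-like proteins, a class that recruits substrates for ubiquitination. AT5G56370 had values of 302.4, 370.5 and 302.2 in SnRK1α1-OE and of 74.39, 44.17 and 78.01 in Col-0. AT5G56380 had 1112, 1063 and 1213 in SnRK1α1-OE and 486.8, 572.1 and 527.1 in Col-0. The log2 fold change was 2.33 (SE 0.247, adjusted p = 0.0321, limma) for AT5G56370 and 1.09 (SE 0.108, adjusted p = 0.0222, limma) for AT5G56380. Their coding sequences are 66.1% identical with a longest shared run of 23 bases. AT5G56370 was no longer called without SnRK1α1-OE replicate 1, 2 or 3 or Col-0 replicate 3 (highest adjusted p = 0.311, limma). AT5G56380 was not called without these or without Col-0 replicate 2 (highest adjusted p = 0.163, limma). Their outer neighbours, AT5G56390 and AT5G56369, had a value of 0 in all 6 libraries.

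The largest fitted increase was that of a transcript with no known protein. AT3G05955 (chr3:11586005-11586548, minus strand) is annotated as a long noncoding RNA. Its values were 139.2, 100.9 and 101.4 in SnRK1α1-OE, and 3.884, 0.0435 and 0.0241 in Col-0. In reads, this was 144, 107 and 108 in SnRK1α1-OE and 4, 0 and 0 in Col-0. The ratio of read rates over the groups was 85.76, with an exact 95% interval of 33.2 to 316.5 that covers counting error only. The fitted log2 fold change was 6.03 (SE 0.637, adjusted p = 0.0321, limma), and it depends on the pseudocount. AT4G04223 (chr4:2036511-2037816, plus strand), a noncoding RNA, had values of 1541, 1227 and 1285 in SnRK1α1-OE and of 387.4, 329.4 and 310.1 in Col-0 (log2 fold change 1.98, SE 0.135, adjusted p = 0.00295, limma). AT3G05955 lost its call in 5 of the 6 fits without a library, in all but that without Col-0 replicate 1, and with the smallest pseudocount tried (highest adjusted p = 0.299, limma).

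**Figure D2:**
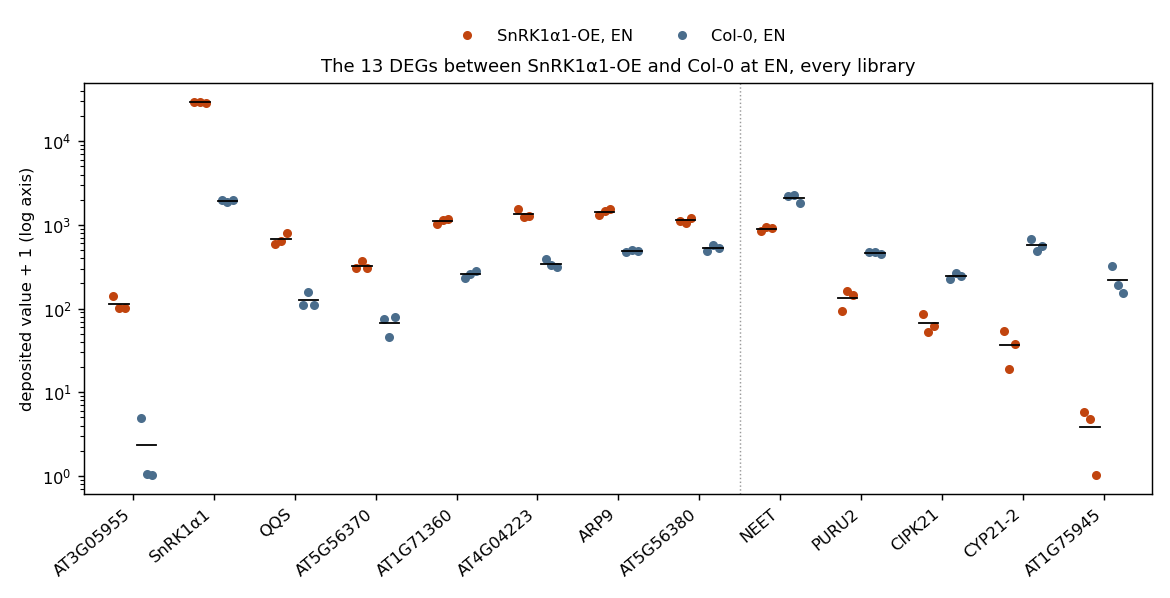
Deposited value plus 1 in every library (log axis) of the 13 DEGs, with SnRK1α1-OE at EN in orange left of Col-0 at EN in blue, and the mean of 3 libraries as a bar. Genes left of the dotted line were higher in SnRK1α1-OE and those right of it lower, and in none do the 2 genotypes overlap. AT3G05955 and AT1G75945 were near 0 in one genotype.

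Among the 5 lower DEGs, AT1G75945 (chr1:28515245-28515916, minus strand), an uncharacterized protein, was nearly missing from the line. Its values were 4.856, 3.765 and 0.0203 in SnRK1α1-OE and 322.7, 190.4 and 151.9 in Col-0. The 3 SnRK1α1-OE libraries held 9 reads together, against 672 in Col-0. The read rate was 78.14-fold lower in SnRK1α1-OE, with an exact 95% interval of 40.92 to 171.6 for counting error only, and the fitted log2 fold change was −6.11 (SE 0.671, adjusted p = 0.0372, limma). Along with AT3G05955 it was among 28 genes that passed the filter through 1 genotype alone, 11 through SnRK1α1-OE and 17 through Col-0. Such genes had to differ, and these 2 were the only DEGs among them. Its call was lost without SnRK1α1-OE replicate 2, without any one of the Col-0 libraries and with the smallest pseudocount tried (highest adjusted p = 0.347, limma, for AT1G75945).

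CYP21-2 (AT3G55920, chr3:20743443-20745153, minus strand) encodes a cyclophilin, a prolyl isomerase that assists protein folding. It had values of 52.30, 17.98 and 36.58 in SnRK1α1-OE and of 681.0, 486.6 and 551.5 in Col-0. The mean was 16.09-fold lower in SnRK1α1-OE, and the fitted difference was −4.08 on the log2 scale (SE 0.363, adjusted p = 0.0149, limma). Without SnRK1α1-OE replicate 3 or Col-0 replicate 2 or 3 it was not called, with an adjusted p of up to 0.102 (limma). It overlaps AT3G55910 on the other strand by 37 bases, a gene with values of 0 to 3.905 in SnRK1α1-OE, against 2.02 to 5.117 in Col-0.

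CIPK21 (AT5G57630, chr5:23340746-23343489, minus strand) is a kinase steered by calcineurin B-like calcium sensors and belongs to the SnRK3 group of the same superfamily as SnRK1. Its values were 85.13, 51.90 and 61.02 in SnRK1α1-OE and 222.1, 263.6 and 242.5 in Col-0. The log2 fold change was −1.89 (SE 0.22, adjusted p = 0.0463, limma). PURU2 (AT4G17360, chr4:9703547-9705664, minus strand) encodes a formyl-tetrahydrofolate deformylase, which in mitochondria keeps the folate pool open for photorespiration. It had values of 93.58, 163.1 and 142.6 in SnRK1α1-OE and of 474.3, 472.6 and 448.9 in Col-0 (log2 fold change −1.84, SE 0.213, adjusted p = 0.0463, limma). Its paralogue PURU1 had a log2 fold change of −0.08 (unadjusted p = 0.552, limma). Both were close to the threshold, and without SnRK1α1-OE replicate 2 or 3 or any Col-0 library neither CIPK21 nor PURU2 was called (highest adjusted p = 0.319, limma, for each). Both also lost the call with the smallest pseudocount tried, and PURU2 with quantile normalization.

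NEET (AT5G51720, chr5:21009347-21010345, plus strand) encodes an iron-sulfur cluster protein of chloroplasts and mitochondria that takes part in iron homeostasis and leaf ageing. Its values were 837.7, 956.0 and 914.0 in SnRK1α1-OE and 2202, 2272 and 1847 in Col-0. The lowest Col-0 library lay well above the highest SnRK1α1-OE library, and the log2 fold change was −1.22 (SE 0.113, adjusted p = 0.0163, limma). The call was lost without any one of the SnRK1α1-OE libraries, without Col-0 replicate 2 and in the fit of the 12 libraries of both genotypes, with an adjusted p of up to 0.265 (limma).

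The 13 DEGs lay on chromosomes 1 (2 genes), 3 (4 genes), 4 (2 genes) and 5 (5 genes). Of the 26 nearest annotated genes on either side of them, 10 were tested. The F-box pair accounted for 2 of these. The other 8 had log2 fold changes of −0.26 to 0.26 with a median of 0.02, and none had an unadjusted p under 0.05. AT4G17350, the lowest at −0.26 (unadjusted p = 0.0555, limma), overlaps PURU2 by 28 bases on the other strand and was the only one of the 8 without overlap between the groups, at 387.5, 342.3 and 388.5 in SnRK1α1-OE and 432.7, 445.6 and 458.6 in Col-0. Whether reads were counted by strand is not given in the sources used here. SKP1A, a core subunit of SCF ubiquitin ligases and the neighbour of AT1G75945, had a mean of 6298 ± 832 in SnRK1α1-OE and of 6310 ± 927 in Col-0 (SD, n = 3 each).

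The same genes were looked up in libraries that the EN comparison did not use. At ED all 13 had the same sign in SnRK1α1-OE against Col-0. The adjusted p at ED was under 0.05 for 11 of them, and 8 were DEGs there, among 35 of 19576 genes (0.179%) in all. These 8 were SnRK1α1, QQS, AT5G56370, AT4G04223 and AT3G05955, which were higher, and AT1G75945, CYP21-2 and PURU2, which were lower. Leaving out one ED library in turn gave 4 to 9 of the 13, with 4 without SnRK1α1-OE replicate 1 and 5 without SnRK1α1-OE or Col-0 replicate 3. AT1G75945 was listed at 0 in every SnRK1α1-OE library of ED, against 285.2, 210.0 and 289.4 in Col-0. AT3G05955 had 120.6, 134.1 and 171.5 in SnRK1α1-OE at ED and at most 0.961 in Col-0. CYP21-2 had 65.73, 38.26 and 50.23 in SnRK1α1-OE at ED and 634.3, 529.3 and 590.7 in Col-0. AT1G75945 and CYP21-2 were thus lower and AT3G05955 higher in SnRK1α1-OE at both times of day.

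**Figure D3:**
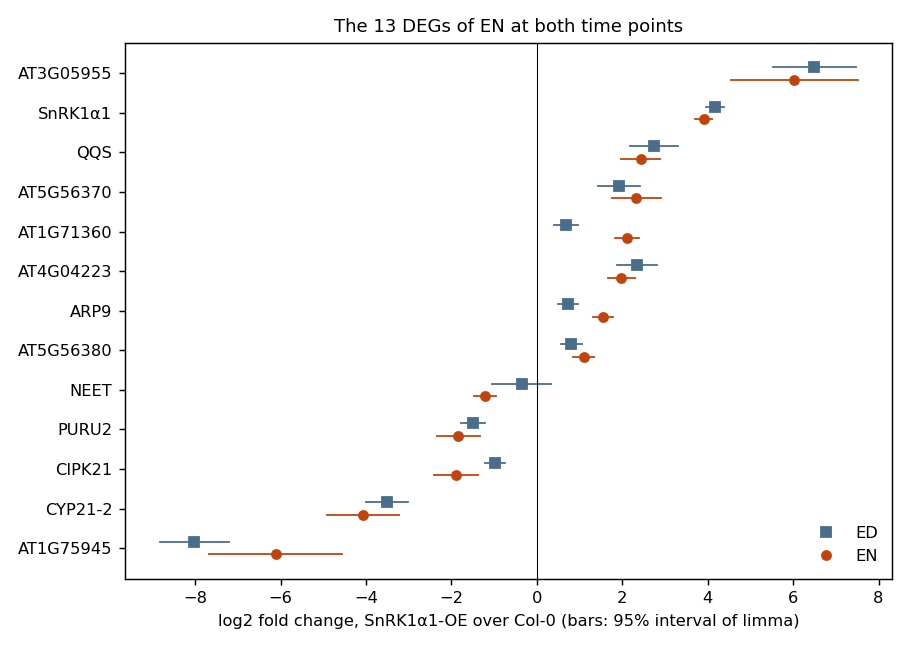
Log2 fold change of SnRK1α1-OE over Col-0 (x axis) for the 13 DEGs of EN, at ED (blue squares) and at EN (orange circles), with 95% intervals of the limma fits as bars. All 13 have the same sign at both times. For AT1G71360 and ARP9 the ED value is the smaller one by 1.44 and 0.83.

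Of the 13, AT1G71360 and ARP9 had an effect at EN that differed from that at ED at an adjusted p under 0.05, a test passed by 42 of 20041 genes (0.21%). Over all genes tested the median log2 fold change was 0.03 at EN and −0.12 at ED, and the EN minus ED differences include that gap. They were not refitted with another scaling. For AT1G71360 the values at ED were 606.4, 707.7 and 615.5 in SnRK1α1-OE and 370.1, 411.4 and 420.7 in Col-0. The log2 fold change at ED was 0.68, and the EN minus ED difference was 1.44 (SE 0.162, adjusted p = 0.0118, limma). For ARP9 the values at ED were 1266, 1420 and 1288 in SnRK1α1-OE and 802.6, 760.2 and 840.3 in Col-0. In Col-0 all 3 EN values of both genes lay below the 3 ED values, while in SnRK1α1-OE those of AT1G71360 lay above and those of ARP9 overlapped. The difference for ARP9 was 0.83 (SE 0.133, adjusted p = 0.0494, limma). Leaving out 1 of the 12 libraries gave an adjusted p of up to 0.0738 for AT1G71360, which missed the threshold without replicate 1 of SnRK1α1-OE at ED, replicate 1 or 2 of SnRK1α1-OE at EN, replicate 3 of Col-0 at ED or replicate 2 of Col-0 at EN. For ARP9 it gave up to 0.165, and the gene passed only without replicate 2 of SnRK1α1-OE or replicate 1 of Col-0 at ED. The number of genes that passed was itself 0 to 1130 in these fits, with 1130 without replicate 1 of Col-0 at ED and 68 without replicate 2 of SnRK1α1-OE at ED. For NEET the difference was −0.86 (adjusted p = 0.202, limma), with values at ED of 143.3, 161.6 and 220.5 in SnRK1α1-OE and of 350.8, 161.4 and 189.6 in Col-0.

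In the sesquiα2 mutant at EN, which is set against the same Col-0 libraries, where 236 of 19582 genes (1.21%) were DEGs, NEET had 4106, 3785 and 3704 in sesquiα2 (log2 fold change 0.88, adjusted p = 0.00377, limma), on the other side of Col-0 from SnRK1α1-OE. The label of sesquiα2 gives a homozygous insertion line (GABI_579E09) crossed to a heterozygous one (WiscDsLox384F5), which the study describes as mutant in both copies of SnRK1α1 and in one of SnRK1α2. The value of SnRK1α1 was nevertheless 1950, 1672 and 1875 in sesquiα2 (log2 fold change −0.09, adjusted p = 0.669, limma), so that this gene's value gives no check of the sesquiα2 label. A value per gene does not show whether such a transcript is intact. None of the 10 remaining genes tested in both had an adjusted p under 0.05 in sesquiα2. QQS varied within sesquiα2, at 106.6, 90.88 and 389.1. AT3G05955 had 4.279, 3.893 and 0 in sesquiα2, and AT1G75945 had 248.8, 198.1 and 251.5, both close to Col-0. The sesquiα2 seedlings were selected on BASTA plates before transfer to soil, so that growth and genotype cannot be told apart there.

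All gene lists used here were assembled with results of these data known, so a list's difference from all genes is no test of that list. Of the 11 starvation markers, which SnRK1 induces in the dark or in protoplasts, 10 were tested, with no DEG and a median log2 fold change of −0.03 against 0.03 for all genes. DIN6 (AT3G47340, asparagine synthetase 1), a classic dark-induced SnRK1 target, had 282.9, 664.6 and 444.9 in SnRK1α1-OE and 651.9, 1070 and 627.1 in Col-0. The groups overlapped (log2 fold change −0.79, SE 0.325, unadjusted p = 0.0416, limma). DIN11 (AT3G49620) had 272.5, 313.9 and 194.4 in SnRK1α1-OE and 136.2, 190.4 and 117.6 in Col-0, without overlap (log2 fold change 0.81, SE 0.247, unadjusted p = 0.0117, limma). DIN10 and SEN5, the list's most abundant members, had log2 fold changes of −0.0034 and −0.04. DIN2 was under the filter, with 11.69, 3.78 and 0.03 in SnRK1α1-OE and 7.76, 2.15 and 0.06 in Col-0.

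The bZIP factors of groups C and S1, through which SnRK1 acts on transcription, had a median of −0.005 over 9 genes, and none had an unadjusted p under 0.05. The largest difference was that of bZIP63, which SnRK1 phosphorylates, with 3634, 3473 and 3381 in SnRK1α1-OE and 4807, 4066 and 3734 in Col-0 (log2 fold change −0.26, SE 0.115, unadjusted p = 0.0558, limma), and bZIP11 had 0.26 with overlapping groups (SE 0.217, limma). The 15 genes of branched-chain amino acid, lysine and proline catabolism had a median of 0.095. Only ProDH1 (AT3G30775), the first enzyme of proline breakdown, had an unadjusted p under 0.05 (0.0286, limma), with 7274, 7938 and 7791 in SnRK1α1-OE and 5693, 7156 and 5733 in Col-0. ProDH1 was also higher than in Col-0 in sesquiα2 at EN (log2 fold change 1.01, adjusted p = 0.032, limma). Of the 10 autophagy genes, with a median of −0.055, only the kinase gene ATG1A had an unadjusted p under 0.05. It had 1266, 1227 and 1339 in SnRK1α1-OE and 833.5, 1076 and 1015 in Col-0 (log2 fold change 0.40, SE 0.118, unadjusted p = 0.0104, limma).

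In carbon metabolism, the 18 tested genes of Tre6P metabolism had a median of −0.08 and no DEG. Of these, 12 of 18 were below 0, where 57.5% of all genes were above 0. Without overlap were 3 of 18, against 10.3% of all genes. TPS1, which makes the signal Tre6P, averaged 1804 ± 122 in SnRK1α1-OE and 1804 ± 128 in Col-0 (SD, n = 3 each). The 2 with an unadjusted p under 0.05 were phosphatase genes, which remove it. Both were lower, and 1.03% of all genes were lower at that level. TPPH (AT4G39770) had 267.8, 176.4 and 196.2 in SnRK1α1-OE and 392.2, 311.8 and 298.4 in Col-0 (log2 fold change −0.66, SE 0.197, unadjusted p = 0.011, limma). TPPJ (AT5G65140) had 134.2, 184.8 and 158.6 in SnRK1α1-OE and 223.1, 242.8 and 211.3 in Col-0 (log2 fold change −0.51, SE 0.17, unadjusted p = 0.0175, limma). Both were without overlap between the genotypes and neither passed the adjusted threshold. TPPI had a log2 fold change of −0.62, with its values between 0.0539 and 15.04 in SnRK1α1-OE, against 3.102 to 17.44 in Col-0. In starch degradation, 19 genes lay between −0.17 and 0.17 with a median of 0.01. In starch synthesis, 16 genes lay between −0.09 and 0.30 with a median of 0.03, and neither list had a gene with an unadjusted p under 0.05 or without overlap. BAM3, the main nocturnal β-amylase of the chloroplast, averaged 32548 ± 4260 in SnRK1α1-OE and 33739 ± 6651 in Col-0. GBSS1, the starch synthase of amylose, averaged 14012 ± 3575 in SnRK1α1-OE and 13556 ± 2490 in Col-0 (SD, n = 3 each). The largest differences of these lists were those of MEX1, the maltose exporter (−0.17), and of APL3, a subunit of ADP-glucose pyrophosphorylase (0.30). In photorespiration, PURU2 was the only one of 19 genes with an unadjusted p under 0.05, and the median was −0.06. The abundant aminotransferase gene GGT1 had a log2 fold change of −0.17 (SE 0.15, limma).

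**Figure D4:**
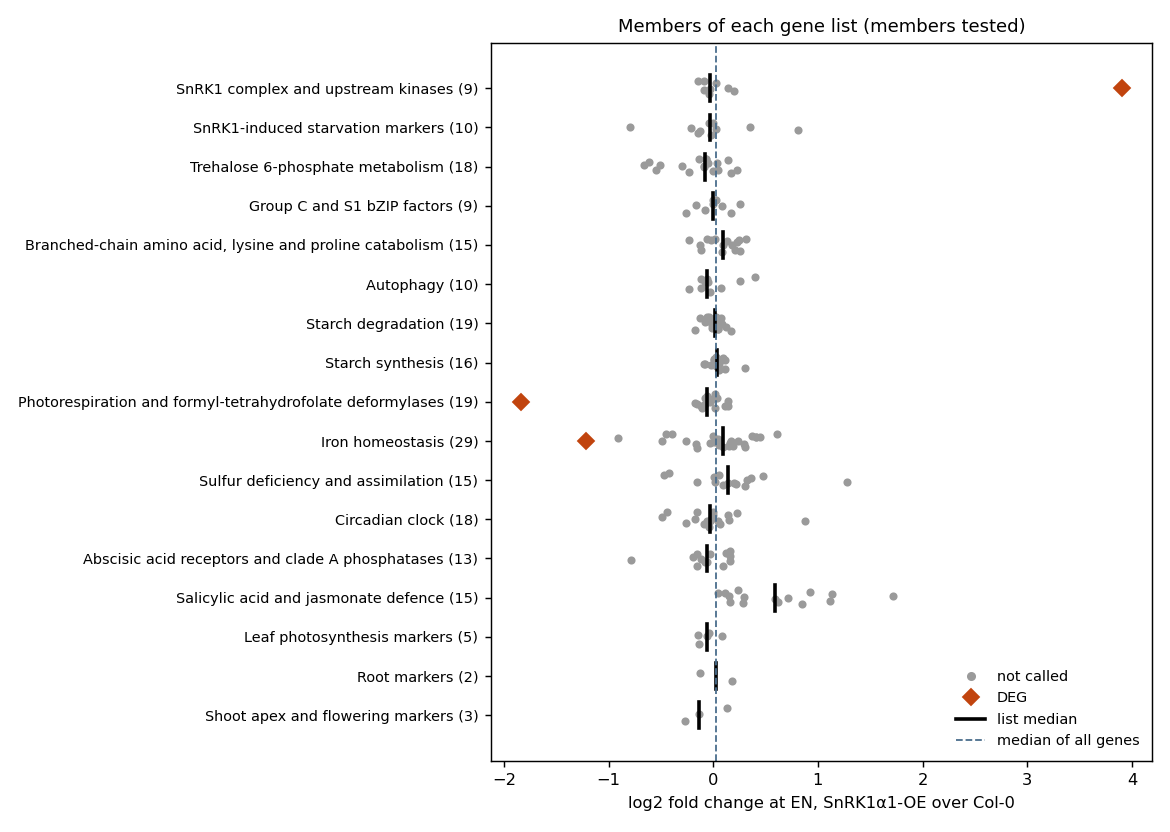
Log2 fold change at EN of every tested member of the 17 gene lists (x axis), with the number tested in parentheses. Orange diamonds are DEGs, grey points other members, black bars list medians and the dashed line the median of all genes, 0.03. The list of salicylic acid and jasmonate defence genes has its median at 0.59, and the other 16 medians lie between −0.13 and 0.14.

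Of 29 tested genes of iron homeostasis, NEET was the only DEG, 4 others were higher and 2 others lower at an unadjusted p under 0.05, against 2.91% higher and 1.03% lower of all genes, and the median was 0.09. In all 8 of 29 were without overlap between the genotypes, against 10.3% of all genes. As for the other lists, this excess is no test of the list. Higher were ORG1, OPT3, bHLH101 and IRP6, which belong to the response of leaves to low iron. ORG1 (AT5G53450) had 4248, 4239 and 4729 in SnRK1α1-OE and 2867, 3571 and 3267 in Col-0 (log2 fold change 0.45, SE 0.112, unadjusted p = 0.00412, limma). bHLH101 (AT5G04150), a transcription factor of that response, had 139.1, 194.2 and 147.4 in SnRK1α1-OE and 111.1, 92.65 and 108.5 in Col-0 (log2 fold change 0.61, SE 0.195, unadjusted p = 0.0149, limma). Lower were SAPX and FER4, an ascorbate peroxidase and the iron store ferritin. FER4 (AT2G40300) had 921.8, 928.7 and 856.8 in SnRK1α1-OE and 1548, 1343 and 985.0 in Col-0 (log2 fold change −0.49, SE 0.164, unadjusted p = 0.0174, limma). The differences of all 6 were smaller than that of NEET and none passed the adjusted threshold. FSD1, the iron superoxide dismutase, had −0.91 with overlapping groups (SE 0.426, unadjusted p = 0.0667, limma). AT1G48300 (DGAT3), the most abundant gene of the list, is among those the study lists as raised by low iron. Its log2 fold change was 0.05 with overlapping groups (unadjusted p = 0.576, limma).

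Sulfur genes had a median of 0.14, with 12 of 15 above 0, against 57.5% of all genes, and 3 higher at an unadjusted p under 0.05, against 2.91% of all genes. APR1 and APR3, which reduce activated sulfate, averaged 3457 ± 312 and 3563 ± 138 in SnRK1α1-OE, against 2688 ± 205 and 2843 ± 184 in Col-0 (SD, n = 3 each). The log2 fold changes were 0.36 for APR1 (unadjusted p = 0.0107, limma) and 0.33 for APR3 (unadjusted p = 0.00872, limma). PYD4 (AT3G08860) had 25.09, 33.91 and 24.43 in SnRK1α1-OE and 9.646, 9.429 and 13.6 in Col-0 (log2 fold change 1.28, SE 0.334, unadjusted p = 0.00529, limma). APR2, the most abundant gene of the list, had a log2 fold change of 0.01, RVE2 had −0.42 (SE 0.255, limma) and LSU3 0.47 (SE 0.294, limma).

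Among clock genes, LHY averaged 47923 ± 5744 in SnRK1α1-OE and 49040 ± 5376 in Col-0, and CCA1 26556 ± 4245 in SnRK1α1-OE and 26482 ± 3796 in Col-0 (SD, n = 3 each). Both are transcription factors with a peak near dawn. Of 18 clock genes, with a median of −0.03, only RVE4 had an unadjusted p under 0.05, with 10041, 11791 and 12468 in SnRK1α1-OE and 13215, 14407 and 13369 in Col-0 (log2 fold change −0.26, SE 0.112, unadjusted p = 0.0481, limma). PRR5, an evening repressor, was low, at 21.27, 15.11 and 20.62 in SnRK1α1-OE and 11.6, 13.31 and 5.99 in Col-0 (log2 fold change 0.87, SE 0.408, unadjusted p = 0.0651, limma). PRR3 had −0.49 (SE 0.304, limma). The 13 tested receptors of abscisic acid and clade A phosphatases, which link that hormone to SnRK1, had a median of −0.055 and no unadjusted p under 0.05. HAI1, a phosphatase gene, had −0.79 at overlapping values, between 6.668 and 31.79 in SnRK1α1-OE, against 13.12 to 55.13 in Col-0.

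No gene of the salicylic acid and jasmonate defence list was a DEG. All 15 had a log2 fold change above 0, against 57.5% of all genes, with a median log2 fold change of 0.59 against 0.03 over all genes, and 7 of 15 had an unadjusted p under 0.05 where 2.91% of all genes were higher at that level. Like the other lists, this one was assembled with results of these data known, so its excess over all genes is no test of the list. The 7 include all 4 PDF1 genes, which are close copies and are not counted here as 4 separate results. Without both replicate 1 libraries its median was 0.34. The 4 plant defensin genes of the PDF1 group encode small antifungal proteins that serve as markers of jasmonate and ethylene signalling. PDF1.3 (AT2G26010, chr2:11087280-11088001) had 1389, 1563 and 1205 in SnRK1α1-OE and 711.0, 640.9 and 564.4 in Col-0. It was the gene next to the threshold (log2 fold change 1.11, SE 0.134, adjusted p = 0.0567, limma), and it was a DEG under 6 of 17 alternatives, among them edgeR (adjusted p = 0.0367) and the fit without both replicate 1 libraries (adjusted p = 2.47e-04, limma).

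PDF1.2c (AT5G44430, chr5:17908850-17909507) had 261.9, 302.6 and 199.99 in SnRK1α1-OE and 65.64, 69.75 and 95.55 in Col-0 (log2 fold change 1.71, SE 0.228, adjusted p = 0.103, limma), and was a DEG without both replicate 1 libraries (log2 fold change 1.58, adjusted p = 0.00621, limma). PDF1.2a (AT5G44420, chr5:17906968-17907638) had 1148, 1306 and 997.7 in SnRK1α1-OE and 564.1, 581.8 and 664.8 in Col-0 (log2 fold change 0.92, SE 0.129, adjusted p = 0.127, limma). PDF1.2b (AT2G26020, chr2:11089123-11089805) had 159.5, 124.5 and 125.8 in SnRK1α1-OE and 90.87, 67.40 and 37.53 in Col-0 (log2 fold change 1.13, SE 0.326, unadjusted p = 0.00882, limma). All 4 were without overlap between the genotypes. They are close copies, in 2 neighbouring pairs on chromosomes 2 and 5. Their first 90 coding bases in RefSeq TAIR10.1 are shown, with capitals where a copy differs from PDF1.2a.
PDF1.2a: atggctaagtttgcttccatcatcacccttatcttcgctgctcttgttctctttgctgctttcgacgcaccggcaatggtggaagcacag
PDF1.2b: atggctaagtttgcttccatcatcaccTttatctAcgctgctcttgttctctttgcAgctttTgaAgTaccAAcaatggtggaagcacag
PDF1.2c: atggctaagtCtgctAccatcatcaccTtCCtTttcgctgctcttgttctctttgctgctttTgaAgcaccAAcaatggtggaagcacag
PDF1.3: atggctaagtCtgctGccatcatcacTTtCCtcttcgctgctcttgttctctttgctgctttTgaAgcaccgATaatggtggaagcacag
In this stretch the other copies differ from PDF1.2a at 8 to 10 bases, and over the 243 coding bases any pair is 91.4% to 94.7% identical, with longest shared runs of 39 to 72 bases. These runs are shorter than the read length of 150 bases, so a full read within the coding part would hold a difference between any pair. Untranslated parts were not compared. How reads that match several copies were treated is not given in the sources used here. Whether reads were exchanged among the 4 genes was not tested, so the split of their values stays uncertain.

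**Figure D5:**
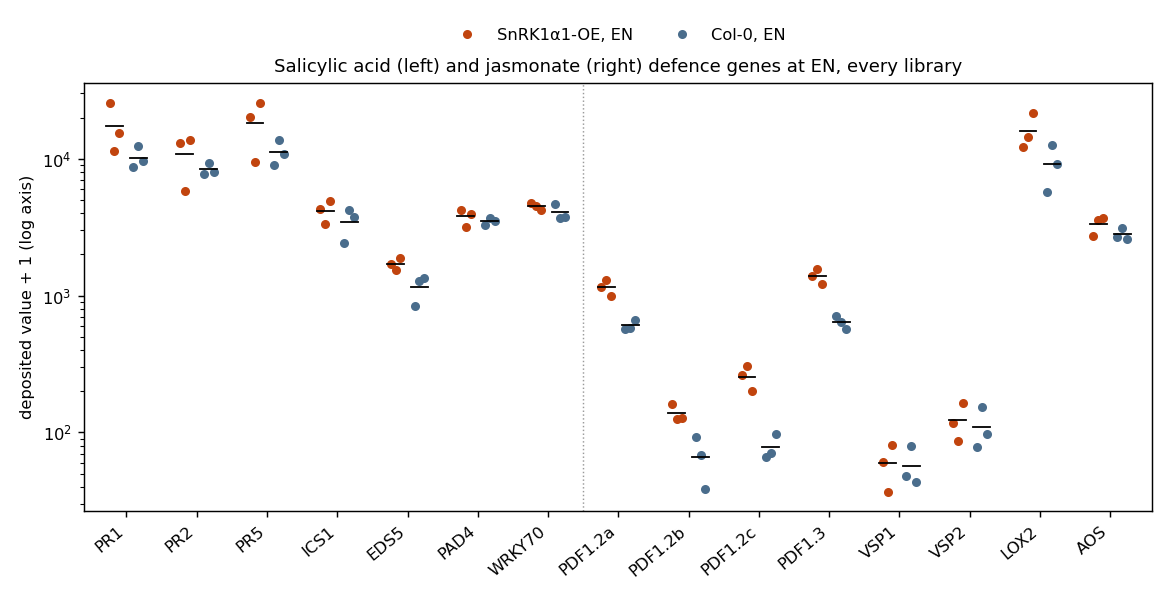
Deposited value plus 1 in every library (log axis) of 7 salicylic acid genes (left of the dotted line) and 8 jasmonate genes (right), with SnRK1α1-OE at EN in orange left of Col-0 at EN in blue, and the mean as a bar. The genotypes are apart for EDS5 and for the 4 PDF1 genes, and overlap for the other 10, PR1 and LOX2 included.

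PR1, the standard marker of salicylic acid, had 25694, 11353 and 15371 in SnRK1α1-OE and 8689, 12309 and 9573 in Col-0. The groups overlapped, and the log2 fold change of 0.71 (SE 0.283, unadjusted p = 0.0373, limma) was 0.28 without both replicate 1 libraries. EDS5 (AT4G39030), which exports a precursor of salicylic acid from the chloroplast, had 1698, 1528 and 1888 in SnRK1α1-OE and 835.4, 1280 and 1336 in Col-0 (log2 fold change 0.59, SE 0.187, unadjusted p = 0.0137, limma). LOX2 (AT3G45140), the lipoxygenase that starts jasmonate synthesis, had 12276, 14365 and 21530 in SnRK1α1-OE and 5672, 12680 and 9086 in Col-0, with overlap (log2 fold change 0.85, SE 0.31, unadjusted p = 0.0267, limma). VSP1, a jasmonate marker of the wound branch, had a log2 fold change of 0.04 (SE 0.371, unadjusted p = 0.91, limma). At ED the salicylic acid genes varied far more within a genotype, with PR1 at 32020, 14230 and 9391 in SnRK1α1-OE and at 3946, 39440 and 34920 in Col-0. PR1 and PR5 differed there by −0.11 and −1.12 on the log2 scale, with overlap. All 4 PDF1 genes were higher in SnRK1α1-OE at ED, without overlap. Their ED differences were 2.90 (PDF1.3), 2.11 (PDF1.2c), 1.83 (PDF1.2a) and 1.85 (PDF1.2b), and none passed (adjusted p of 0.0816 to 0.148, limma). For PDF1.2b the lowest SnRK1α1-OE value at ED was 71.61 and the highest Col-0 value 66.64. The share of all genes without overlap at ED was not computed. VSP1 stood at 1432, 4419 and 2157 in SnRK1α1-OE at ED and at 881.6, 271.4 and 174.7 in Col-0, also without overlap.

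Large differences that missed the call numbered 27 among genes with a mean value of at least 50, a difference of 1 or more in size on the log2 scale and no overlap between the groups. Of these 27, 19 were higher and 8 lower in SnRK1α1-OE. Without the limit on the mean value and with the DEGs, 89 genes (0.459%) had such a difference. The 5 highest of the 27 were AT5G38005, PDF1.2c, AT4G36700, CYP71A13 and WRKY75. AT5G38005 (chr5:15155067-15156088), a noncoding RNA, had 289.9, 254.6 and 237.5 in SnRK1α1-OE and 59.92, 57.75 and 24.81 in Col-0 (log2 fold change 2.53, SE 0.338, adjusted p = 0.103, limma), and was a DEG under 8 of 17 alternatives. At ED its mean was 125.3 ± 9.87 in SnRK1α1-OE and 12.81 ± 6.24 in Col-0 (SD, n = 3 each), with an adjusted p of 0.0206 (limma). CYP71A13 makes a precursor of the antifungal camalexin. It had 1304, 1148 and 1576 in SnRK1α1-OE and 328.3, 681.6 and 542.6 in Col-0 (log2 fold change 1.43, SE 0.258, adjusted p = 0.42, limma). WRKY75, a transcription factor gene, had 164.4, 81.17 and 126.7 in SnRK1α1-OE and 74.47, 41.74 and 29.64 in Col-0 (log2 fold change 1.38, SE 0.391, limma). AT4G36700, a cupin, had a log2 fold change of 1.45 (SE 0.335, limma).

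The 5 lowest of them were AT4G13577, AGL87, AT1G74290, AT3G46880 and PKP4. AT4G13577 (chr4:7895719-7898499), uncharacterized, had 29.89, 35.83 and 42.17 in SnRK1α1-OE and 183.5, 219.4 and 102.2 in Col-0 (log2 fold change −2.14, SE 0.316, adjusted p = 0.179, limma). It was a DEG under 4 of 17 alternatives. AGL87, a MADS-box gene, had 404.1, 250.9 and 268.5 in SnRK1α1-OE and 1541, 793.2 and 656.6 in Col-0. In both genotypes its replicate 1 library was the highest, and the log2 fold change of −1.62 (SE 0.324, adjusted p = 0.641, limma) was −1.47 without both (adjusted p = 1.785e-05, limma). AT1G74290, an α/β-hydrolase, had 56.94, 58.48 and 82.47 in SnRK1α1-OE and 144.8, 176.6 and 226.5 in Col-0 (log2 fold change −1.45, SE 0.242, limma). PKP4, of the pyruvate kinase family, had 99.48, 107.5 and 107.9 in SnRK1α1-OE and 249.2, 275.8 and 181.2 in Col-0 (log2 fold change −1.14, SE 0.196, limma). AT3G46880, uncharacterized, had a log2 fold change of −1.19 (SE 0.328, limma).

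Of the genes next by p, 4 more are given. KAT5, a thiolase of peroxisomal fatty acid breakdown, had 1368, 1323 and 1379 in SnRK1α1-OE and 931.2, 934.9 and 890.9 in Col-0 (log2 fold change 0.56, SE 0.0859, adjusted p = 0.205, limma). KAT5 was also higher than in Col-0 in sesquiα2 at EN (log2 fold change 0.53, adjusted p = 0.0193, limma). ELIP1, an early light-induced protein that protects the photosystems, had 880.2, 1047 and 943.2 in SnRK1α1-OE and 625.0, 626.3 and 569.2 in Col-0 (log2 fold change 0.65, SE 0.108, adjusted p = 0.296, limma). Its paralogue ELIP2 had 1304, 1364 and 1327 in SnRK1α1-OE and 838.5, 516.8 and 530.2 in Col-0 (log2 fold change 1.12, SE 0.184, adjusted p = 0.296, limma). ELIP2 was also among the 27 genes above. Its Col-0 replicate 1 library was the highest of its group, and without it the gene was a DEG. ATEXT4, an extensin of the cell wall, had 1882, 1678 and 1709 in SnRK1α1-OE and 1062, 1182 and 1172 in Col-0 (log2 fold change 0.62, SE 0.0969, adjusted p = 0.214, limma).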

How the data were processed

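The mRNA of 3 SnRK1α1-OE and 3 Col-0 rosette pools at EN was sequenced. Per the labels and the study's methods, the authors mapped reads with HISAT2 to TAIR10, counted them with featureCounts and normalized them with edgeR. The deposited signal values are pseudo-counts of edgeR that the authors multiplied by each library's TMM factor. Each library then has about the same total, so the values are scaled by library total and no longer carry the TMM correction. Whole reads were recovered by inverting that calculation, which gave 590994 of 590994 values of all 18 libraries back within 1e-05 (100%). The column of gene lengths in the deposited table was used for levels per kilobase.

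Genes that reached a value of 10 in 3 or more of the 6 libraries were tested on log2(value + 1) with limma 3.58.1 (R 4.3.3; trend and robust), and DEGs had an adjusted p under 0.05 and a log2 fold change of 1 or more in size. Fold changes are on that scale, which understates those of low genes. The unit allows no count test on the deposited values, so edgeR 4.0.16 was run on the recovered reads as an alternative, with 15 genes called. The difference between EN and ED was fitted on 12 libraries. Other alternatives were a smaller and a larger pseudocount, no filter, median-ratio and quantile scaling, joint fits, the replicate number as a term and leaving out libraries. Those on ED, those without both replicate 1 libraries and those on single libraries of the EN minus ED difference and of sesquiα2 were chosen after seeing the data. The scripts were tested on simulated data. Whether replicates came from separate sowings is not given, so p-values measure the spread between these pools.

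The genes named were drawn from the DEGs, their annotated neighbours, the SnRK1 complex, the 5 highest and 5 lowest differences of the uncalled genes without overlap, in each other list the 2 most abundant and the 2 with the largest difference, and some chosen after their values were seen. The members and lists were chosen with earlier results of these data known. Of 32833 IDs, 32548 matched RefSeq (TAIR10.1), from which coordinates and sequences were taken.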

Additional observations from a re-analysis of the deposited data

Results flagged for a closer look

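In 3 named genes the effect of SnRK1α1-OE differed between EN and ED by the test of that difference in limma. For AT1G71360 it was greater at EN by 1.44 on the log2 scale (SE 0.162, adjusted p = 0.0118). For ARP9 it was greater at EN by 0.83 (SE 0.133, adjusted p = 0.0494). For ProDH1 the difference was 1.15 (SE 0.183, adjusted p = 0.0494), with a log2 fold change of 0.32 at EN and −0.83 at ED, where its values were 360.3, 394.3 and 291.0 in SnRK1α1-OE and 562.3, 663.2 and 625.7 in Col-0. Leaving out 1 library in turn kept the sign for ProDH1, with an adjusted p of up to 0.165 in limma.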

How the results depend on the processing

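The direction of the 13 DEGs was the same under all 17 alternatives, with 177 values on the same side of the threshold and 44 no longer past it. The number of DEGs was 5 to 13 without 1 library, with 4 to 11 higher and 0 to 4 lower, and 22 without both replicate 1 libraries (14 higher, 8 lower; chosen after seeing the data). The smallest pseudocount left 2 lower DEGs of 9. The replicate numbers did not pair the samples throughout. Deviations of same-numbered libraries correlated at 0.596, 0.00689 and 0.37. Replicate 1 of SnRK1α1-OE correlated best with replicate 1 of Col-0, and at −0.407 and −0.427 with Col-0 replicates 2 and 3. Replicates 2 and 3 of SnRK1α1-OE each correlated best with the other number of Col-0. With the replicate block there were 33 DEGs (22 higher, 11 lower), all of the 13 among them, and 197 genes passed the adjusted p alone. The EN DEGs that were also DEGs at ED numbered 4 to 9 without 1 ED library. The EN minus ED difference passed for 42 genes, for 238 with the replicate block within time point, and for 0 to 1130 without 1 library. The ED settings and these last fits were also chosen after seeing the data. The cause of these changes was not tested. With 3 libraries per genotype and a median SE of 0.163, differences of small size could not be resolved for most genes.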
